A study of Mus musculus with 6 samples.

Results

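Transcripts of 40 genes of mitosis and chromosome segregation were examined in regulatory T cells (Treg), CD4 T cells that express Foxp3 and hold immune responses in check. The genes were given as a list of mouse symbols, and all 40 had a row among the 37991 genes of the count table. Cells were Treg from mouse spleen, enriched for CD4 cells and then sorted for YFP, and RNA was sequenced in 6 libraries. Of these, 3 were labelled KAP1 deficient and 3 wild type, KAP1 sufficient. KAP1, also called TRIM28 and encoded by Trim28, silences chromatin where zinc finger proteins with a KRAB domain recruit it. All cells carried YFP by the sort, and neither the driver of YFP and of the KAP1 loss nor age, sex or treatment is given in the labels. The strain label reads C57BL/6 in 4 libraries, and C57BL/7 and C57BL/8 in deficient replicates 2 and 3. Whether libraries came from different animals is not said in the labels, so each p-value reflects spread among these libraries alone, and that spread may be technical.

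Mitosis shares out the copied chromosomes between daughter cells. The kinase CDK1, switched on by cyclins A and B, drives entry, condensin and topoisomerase II shape the chromosomes, kinetochores hold them to a spindle arranged by kinesins, and a checkpoint waits until all are attached. The anaphase-promoting complex then marks cyclin B and securin for destruction, separase cuts cohesin, and a contractile ring divides the cell. Most of these transcripts accumulate late in the cell cycle, so in bulk RNA they are widely read as a sign of dividing cells, and a share of Treg divides in healthy mice. In bulk samples, fewer cells in division and less RNA per dividing cell cannot be told apart.

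Trim28 went against its label in 2 libraries. It had 232, 185 and 2544 counts in the libraries labelled deficient 1, 2 and 3, against 2462, 2483 and 218 counts in those labelled sufficient 1, 2 and 3. The genes were therefore compared in 3 ways: by label in all 6 libraries, by label in replicates 1 and 2 of each group, and by Trim28 level. Low Trim28 then means the libraries labelled deficient 1, deficient 2 and sufficient 3, and high Trim28 those labelled deficient 3, sufficient 1 and sufficient 2. This last grouping was taken from Trim28 itself and is not the labels' grouping. Libraries held 9954344 to 10994745 counts. Levels are given as CPM, the count scaled to the library total, and a count of 0 allows up to 3 counts, or 0.273 to 0.301 CPM, covering counting error only. Foxp3 stood at 614, 596 and 612 CPM in deficient libraries and 747, 697 and 621 CPM in sufficient ones. The defining B cell gene Ms4a1 had at most 1 count in any library, and Cd8a had 0 to 5. Other genes of the B cell and CD8 T cell marker lists had more, such as Ighm at 5303 to 6810 counts and Nkg7 at 124 to 235.

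Genes expressed late in the cell cycle often carry 2 short promoter elements, the cell cycle genes homology region (CHR, TTTGAA), read by the MuvB complexes, and the CCAAT box, read by NF-Y. The 250 bases before the RefSeq start (GRCm38.p6) are shown for 6 genes: Mki67, Top2a, Cdk1 and Ube2c, which fell with low Trim28 and hold both elements; Cenpa, a centromere gene whose levels overlapped between groups; and Birc5, which fell and holds neither. They read 5′ to 3′ on the gene's strand, and capitals mark TTTGAA or CCAAT on either strand (TTCAAA or ATTGG when read in reverse).
Mki67, chr7:135716380-135716629, minus strand: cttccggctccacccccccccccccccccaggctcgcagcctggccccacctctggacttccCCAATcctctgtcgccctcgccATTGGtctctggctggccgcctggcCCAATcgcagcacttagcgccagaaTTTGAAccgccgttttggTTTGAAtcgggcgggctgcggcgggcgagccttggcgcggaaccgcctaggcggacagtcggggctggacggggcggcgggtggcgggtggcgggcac
Top2a, chr11:99024190-99024439, minus strand: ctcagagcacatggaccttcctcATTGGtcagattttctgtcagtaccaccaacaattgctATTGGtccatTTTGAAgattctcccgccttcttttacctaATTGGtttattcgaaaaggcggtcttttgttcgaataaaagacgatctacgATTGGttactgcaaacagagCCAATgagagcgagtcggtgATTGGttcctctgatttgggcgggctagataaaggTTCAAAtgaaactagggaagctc
Cdk1, chr10:69352913-69353162, minus strand: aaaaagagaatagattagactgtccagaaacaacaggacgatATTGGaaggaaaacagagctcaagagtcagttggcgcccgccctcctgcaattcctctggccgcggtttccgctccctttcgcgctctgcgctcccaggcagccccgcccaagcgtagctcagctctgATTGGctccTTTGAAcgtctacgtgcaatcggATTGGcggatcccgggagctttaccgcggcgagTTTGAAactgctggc
Ube2c, chr2:164769679-164769928, plus strand: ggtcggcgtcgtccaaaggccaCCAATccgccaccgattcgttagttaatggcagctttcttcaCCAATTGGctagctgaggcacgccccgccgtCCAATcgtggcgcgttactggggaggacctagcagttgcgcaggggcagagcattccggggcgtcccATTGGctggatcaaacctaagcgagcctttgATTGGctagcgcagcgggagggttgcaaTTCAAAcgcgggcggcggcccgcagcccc
Cenpa, chr5:30666636-30666885, plus strand: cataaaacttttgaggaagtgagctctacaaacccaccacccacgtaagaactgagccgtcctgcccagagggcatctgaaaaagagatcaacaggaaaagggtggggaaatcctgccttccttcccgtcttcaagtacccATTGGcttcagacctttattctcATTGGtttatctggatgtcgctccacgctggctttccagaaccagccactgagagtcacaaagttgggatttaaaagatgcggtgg
Birc5, chr11:117848987-117849236, plus strand: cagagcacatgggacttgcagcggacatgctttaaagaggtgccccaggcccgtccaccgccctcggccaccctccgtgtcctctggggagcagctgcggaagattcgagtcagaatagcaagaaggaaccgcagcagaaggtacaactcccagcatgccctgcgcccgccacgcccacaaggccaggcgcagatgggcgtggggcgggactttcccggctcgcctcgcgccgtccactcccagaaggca
In the Ube2c sequence 1 CCAAT overlaps another on the opposite strand and the run is written CCAATTGG. The CHR counted for Cenpa lies in the 50 bases after its start, which are not printed.

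By label, none of the 40 genes passed the test. Over all 6 libraries the summed level of the 40 genes was 735, 817 and 944 CPM in deficient 1, 2 and 3, against 961, 1150 and 738 CPM in sufficient 1, 2 and 3. The groups overlapped, because deficient 3 stood near sufficient 1 and sufficient 3 beside deficient 1. The sums averaged 832 ± 105 CPM in deficient and 950 ± 207 CPM in sufficient libraries (SD, n = 3 each). The edgeR quasi-likelihood test called 0 of the 40, where 0.0165% of the 12158 tested genes were called. At an unadjusted p under 0.05 there were 2 of 40, the checkpoint kinase gene Bub1b and the mitotic kinase gene Plk1, against 7.76% of all genes, and DESeq2 and limma-voom also called 0. The log2 fold changes, deficient over sufficient, lay below 0 for 35 genes, against 51.2% of all genes, and above 0 for 5, with a median of -0.25, where the median of all genes was -0.00. They ran from -0.57 for Aurkb to 0.14 for Ccnb1, and the groups overlapped for each of the 40, where 6.05% of all genes were lower and 6.73% higher without overlap. Without the library labelled sufficient 3, 4 genes were called, namely Tpx2, Aurkb, Bub1b and Kif20a, and without any other single library 0 were. Without sufficient 3, 6.54% of all genes were called.

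**Figure D1:**
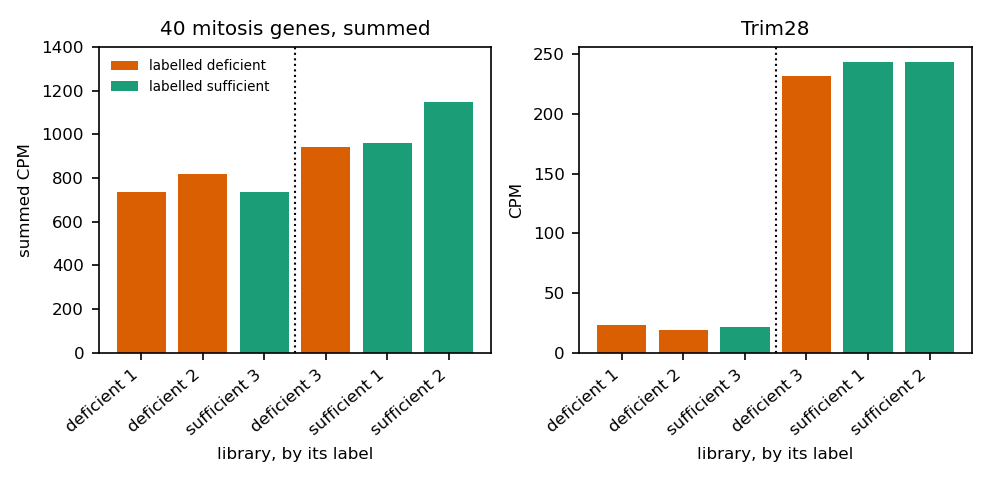
Bars give the summed level of the 40 mitosis genes (left, CPM) and the level of Trim28 (right, CPM) in each of the 6 libraries, orange for those labelled deficient and green for those labelled sufficient, with the low-Trim28 libraries left of the dotted line. The 3 low-Trim28 libraries sit between 735 and 817 summed CPM, below the 3 high-Trim28 libraries at 944 to 1150.

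By Trim28 level, 20 of the 40 genes fell, 1 rose and 19 did not pass the test. The sum of the 40 genes was 735, 817 and 738 CPM in the low-Trim28 libraries and 944, 961 and 1150 CPM in the high-Trim28 ones, a ratio of 0.749 between the means of 763 ± 46.4 and 1018 ± 114 CPM (SD, n = 3 each). Without the 2 most abundant genes, Mki67 and Top2a, the sums averaged 558 ± 35.2 CPM with low Trim28 and 707 ± 70.8 CPM with high Trim28. The 21 calls stand beside 8.23% of the 12158 genes tested, lower calls beside 3.61% and higher ones beside 4.61%. The median log2 fold change of the 40, low over high Trim28, was -0.47, a level 0.722 times as high, where the median of all genes was 0.00. The groups did not overlap for 31 genes that were lower with low Trim28 and for 1 that was higher, against 14.5% and 11.9% of all genes. In replicates 1 and 2 alone, by label, 23 genes fell in deficient libraries, 1 rose and 16 did not pass, with a median of -0.52. There 17.4% of 12183 genes were called, 7.39% lower and 9.96% higher. With upper-quartile factors the split over all genes turned, to 1248 lower and 1046 higher there and to 562 lower and 489 higher by Trim28 level, where the main split was 439 lower and 561 higher. This comparison shares its libraries with the one by Trim28 level and is no separate evidence.

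**Figure D2:**
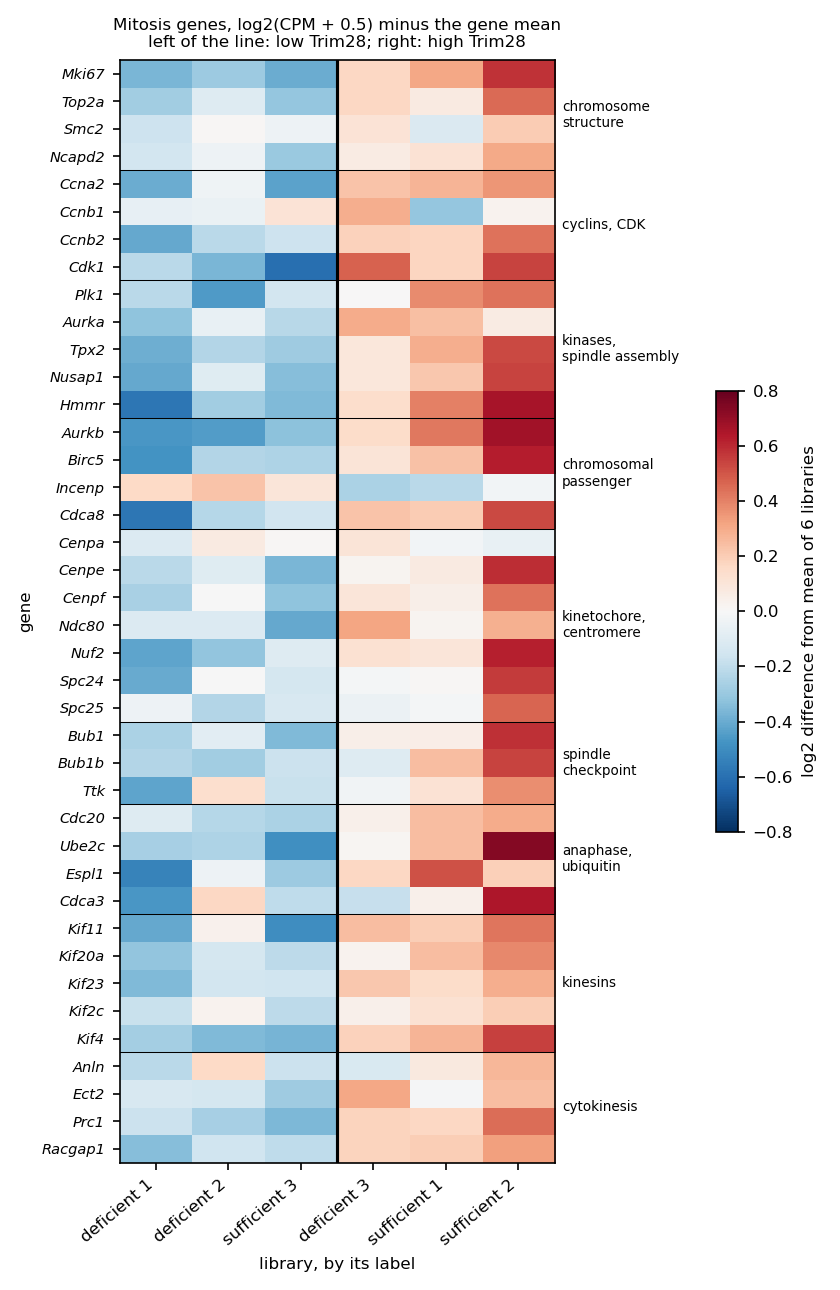
Colours give log2(CPM + 0.5) minus the gene's own mean over the 6 libraries (red higher, blue lower) for the 40 genes, grouped by role, with the low-Trim28 libraries left of the line. Most genes are blue in deficient 1, deficient 2 and sufficient 3 and red in sufficient 2. Incenp is red on the left and blue on the right.

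The libraries were not evenly spaced within their groups. Sufficient 2 was highest for 33 of the 40 genes, against 21.8% of all genes, and deficient 3 for 5. Deficient 1 was lowest for 19 and sufficient 3 for 16, against 16.1% and 15.5% of all genes. Within the deficient label, replicate 3 exceeded replicates 1 and 2 for 34 genes, against 42.2% of all genes. Within the sufficient label, replicate 3 was below replicates 1 and 2 for 36, against 38.7%. Both held for 31 genes, where 20.5% of all genes did so. For 19 genes deficient 3 lay above the 3 low-Trim28 libraries and below both sufficient 1 and sufficient 2, as it did for 7.53% of all genes.

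Mki67 and Top2a had the highest CPM of the list and both fell with low Trim28. Mki67 encodes Ki-67, the coat protein of mitotic chromosomes used as a marker of dividing cells (ENSMUSG00000031004, chromosome 7, 135689784 to 135716361, mm10). It stood at 109, 115 and 107 CPM in the low-Trim28 libraries deficient 1, deficient 2 and sufficient 3, against 158, 174 and 210 CPM in the high-Trim28 libraries deficient 3, sufficient 1 and sufficient 2. The groups did not overlap, and deficient 3 was the lowest of the high group. On the log2 scale Mki67 fell by 0.70 ± 0.09 with low Trim28 (SE, edgeR adjusted p = 0.000539) and by 0.77 ± 0.08 in replicates 1 and 2 by label (9.01e-06). Over all 6 libraries by label its log2 fold change was -0.37 ± 0.30, which did not pass (edgeR adjusted p = 0.761). Top2a, which untangles sister DNA (ENSMUSG00000020914, chromosome 11, 98992943 to 99024189), stood at 91.5, 103 and 89.5 CPM with low Trim28 and 124, 117 and 152 CPM with high Trim28. It fell by 0.46 ± 0.09 (edgeR adjusted p = 0.0104), but did not pass in replicates 1 and 2 by label, with a log2 fold change of -0.46 ± 0.14 (0.0879).

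The list holds 2 condensin genes, and 1 of them fell. Ncapd2, a regulatory subunit of condensin I, fell by 0.32 ± 0.08 with low Trim28 (edgeR adjusted p = 0.0234). Smc2, the ATPase that both condensins share, had a log2 fold change of -0.13 ± 0.08 that did not pass (0.384), and its groups overlapped. Scaled by exon length, the highest mean levels over the 6 libraries were those of Incenp at 14.6 CPM per kb, Mki67 at 14.5, Ncapd2 at 13.9, Top2a at 12.5 and Smc2 at 10.7. Mki67 shares 216 bases with the pseudogene Gm44521. The lowest levels were those of Ttk at 0.558, Ccnb1 at 0.529 and Anln at 0.445 CPM per kb.

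Of the 4 cyclin and CDK genes, 3 fell. Ccna2, the cyclin of S phase and mitotic entry, stood at 15.0, 19.4 and 14.7 CPM with low Trim28 and 23.4, 24.1 and 25.5 CPM with high Trim28, and fell by 0.56 ± 0.11 (edgeR adjusted p = 0.0066). Ccnb2, a B-type cyclin, stood at 8.04, 9.24 and 9.61 CPM with low Trim28 and 12.4, 12.3 and 14.8 CPM with high Trim28, and fell by 0.54 ± 0.13 (0.0201). The groups did not overlap for either gene. Cdk1, the mitotic kinase itself, fell by 0.83 ± 0.15 (edgeR adjusted p = 0.00363). Ccnb1, the main B-type cyclin, had only 17 to 31 counts per library and did not pass, at -0.03 ± 0.26 on the log2 scale (edgeR, p after adjustment 0.968). It shares at least 95% identity over 200 bases or more with 5 pseudogenes, among them Ccnb1-ps at 99.2% over 1287 bases, so its count is uncertain. Ccna2 shares 431 bases of exon with its neighbour Exosc9.

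Mitotic kinases and spindle assembly factors gave 3 calls among 5 genes, all lower with low Trim28. Hmmr, a microtubule-binding protein of the spindle (ENSMUSG00000020330, chromosome 11, 40701395 to 40733422), had the lowest log2 fold change of the 40. It stood at 3.67, 4.62 and 4.37 CPM with low Trim28 and 6.37, 7.72 and 9.33 CPM with high Trim28, a fall of 0.87 ± 0.19 (edgeR adjusted p = 0.00924). Tpx2, which activates Aurora A on the spindle, stood at 10.1, 11.4 and 11 CPM with low Trim28 and 14.4, 16.5 and 19.6 CPM with high Trim28, and fell by 0.63 ± 0.13 (0.00824). Nusap1, which bundles spindle microtubules, stood at 10.8, 13.6 and 11.4 CPM with low Trim28 and 15.5, 16.9 and 21.3 CPM with high Trim28, and fell by 0.58 ± 0.14 (0.0193). None of these 3 overlapped between groups. The kinase genes Plk1 and Aurka did not pass, with log2 fold changes of -0.57 ± 0.17 and -0.43 ± 0.18 (edgeR adjusted p = 0.051 and 0.159), and their groups did not overlap either. In replicates 1 and 2 by label Plk1 fell by 0.78 ± 0.19 (0.00891).

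The chromosomal passenger complex, which corrects faulty attachments and later steers cytokinesis, split in direction. All 4 of its genes changed, 3 lower and 1 higher with low Trim28. Incenp, the scaffold that holds the complex together (ENSMUSG00000024660, chromosome 19, 9872296 to 9899551), stood at 70.1, 73.5 and 66.9 CPM with low Trim28 and 52.5, 53.9 and 61.7 CPM with high Trim28. It was higher in each low-Trim28 library than in any high-Trim28 one, and rose by 0.34 ± 0.07 (edgeR adjusted p = 0.0113), the only gene of the 40 to rise in this comparison. Its kinase Aurkb (ENSMUSG00000020897, chromosome 11, 69045647 to 69051664) stood at 6.75, 6.83 and 7.48 CPM with low Trim28 and 10.6, 12.9 and 15.4 CPM with high Trim28, and fell by 0.87 ± 0.16 (0.00266). Cdca8, which encodes borealin, stood at 8.43, 10.8 and 11.5 CPM with low Trim28 and 15.1, 14.8 and 18.7 CPM with high Trim28, and fell by 0.65 ± 0.14 (0.00942). Birc5, which encodes survivin, fell by 0.67 ± 0.16 (edgeR adjusted p = 0.0149). In replicates 1 and 2 by label the same 3 genes fell and Incenp rose by 0.32 ± 0.08 (0.0111).

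None of the 7 kinetochore and centromere genes passed by Trim28 level. Cenpa, the histone H3 variant that marks centromeres (ENSMUSG00000029177, chromosome 5, 30666777 to 30674830), stood at 46.5, 52.8 and 50.6 CPM with low Trim28 and 53.8, 49.5 and 48.0 CPM with high Trim28. The groups overlapped, and the log2 difference was -0.00 ± 0.07 (edgeR adjusted p = 0.981). Cenpe, a kinetochore motor, stood at 14.3, 15.6 and 12.8 CPM with low Trim28 and 16.9, 17.5 and 25.3 CPM with high Trim28, without overlap, at a log2 fold change of -0.47 ± 0.15 (0.0762). Ndc80, Nuf2, Spc24 and Spc25, the 4 subunits of the NDC80 complex that grips microtubules, had log2 fold changes of -0.43, -0.61, -0.42 and -0.30, and Cenpf one of -0.39. Ndc80 matches 2700099C18Rik at 95.05% over 303 bases and the pseudogene Gm47120 at 95.5% over 202 bases. Nuf2 and Cenpe fell in replicates 1 and 2 by label, by 0.81 ± 0.23 and 0.52 ± 0.16 (edgeR adjusted p = 0.0245 and 0.0349).

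The 3 spindle checkpoint genes did not pass by Trim28 level. Bub1b, which encodes the checkpoint protein BubR1, stood at 13.3, 12.9 and 13.9 CPM with low Trim28 and 14.6, 18.7 and 23.1 CPM with high Trim28. Deficient 3, at 14.6 CPM, was closer to the low libraries than to sufficient 1 or 2, and the log2 fold change was -0.48 ± 0.15 (edgeR adjusted p = 0.0651). Bub1b fell by 0.67 ± 0.14 in replicates 1 and 2 by label (0.00324). Bub1, the kinase that recruits the other checkpoint proteins, stood at 5.65, 6.43 and 5.24 CPM with low Trim28 and 7.09, 7.13 and 10.5 CPM with high Trim28, at -0.50 ± 0.18 (0.117). Ttk, the checkpoint kinase MPS1, had a log2 fold change of -0.34 ± 0.25 (0.458).

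Espl1, Ube2c and Cdc20 act in anaphase and were read together with Cdca3, and 2 of these 4 genes fell. Espl1, which encodes separase, stood at 6.65, 9.54 and 7.96 CPM with low Trim28 and 11.1, 14.3 and 11.3 CPM with high Trim28, and fell by 0.59 ± 0.16 (edgeR adjusted p = 0.0325). Ube2c, the ubiquitin-conjugating enzyme that works with the anaphase-promoting complex, fell by 0.74 ± 0.21 (0.0408). Cdc20, the activator of that complex, had a log2 fold change of -0.41 ± 0.15 that did not pass (edgeR adjusted p = 0.114). Cdca3, known for a role in mitotic entry, overlapped between groups, with 8.83, 14 and 10.7 CPM with low Trim28 and 10.8, 12.8 and 19.6 CPM with high Trim28, at -0.36 ± 0.24 (0.444).

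Of 5 kinesin genes, 4 fell. Kif11, the motor that pushes spindle poles apart, stood at 17.4, 23.7 and 16.3 CPM with low Trim28 and 27.6, 26.6 and 31.3 CPM with high Trim28, and fell by 0.57 ± 0.13 (edgeR adjusted p = 0.0141). Kif20a, a motor of the central spindle, stood at 13.6, 15.4 and 14.7 CPM with low Trim28 and 17.4, 20.3 and 22.3 CPM with high Trim28, and fell by 0.45 ± 0.12 (0.0288). Neither gene overlapped between groups, and Kif20a shares 979 bases of exon with Cdc23. Kif4, a chromosome-arm motor whose exons share 684 bases with Pdzd11, fell by 0.71 ± 0.16 and Kif23, of the centralspindlin complex, by 0.44 ± 0.12 (edgeR adjusted p = 0.0132 and 0.0286). Kif2c, which takes microtubules apart at the kinetochore, did not pass, with a log2 fold change of -0.26 ± 0.19 (0.462), although its groups did not overlap.

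Cytokinesis genes gave 2 calls among 4. Racgap1, the other subunit of centralspindlin (chromosome 15, 99620496 to 99651656), stood at 26.7, 30.3 and 29.5 CPM with low Trim28 and 38.6, 39.0 and 42.8 CPM with high Trim28. The groups were well apart and each was tight, and Racgap1 fell by 0.47 ± 0.08 (edgeR adjusted p = 0.00247). It shares 488 bases with the pseudogene AC148020.1. Prc1, which bundles the antiparallel microtubules of the midzone, stood at 12, 11.3 and 10.5 CPM with low Trim28 and 15.5, 15.3 and 18.8 CPM with high Trim28, and fell by 0.54 ± 0.12 (0.0124). Prc1 shares 670 bases of exon with Rccd1. Ect2, the exchange factor that activates RhoA, and Anln, the ring scaffold anillin, had log2 fold changes of -0.38 ± 0.14 and -0.16 ± 0.21 that did not pass (edgeR adjusted p = 0.106 and 0.708).

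**Figure D3:**
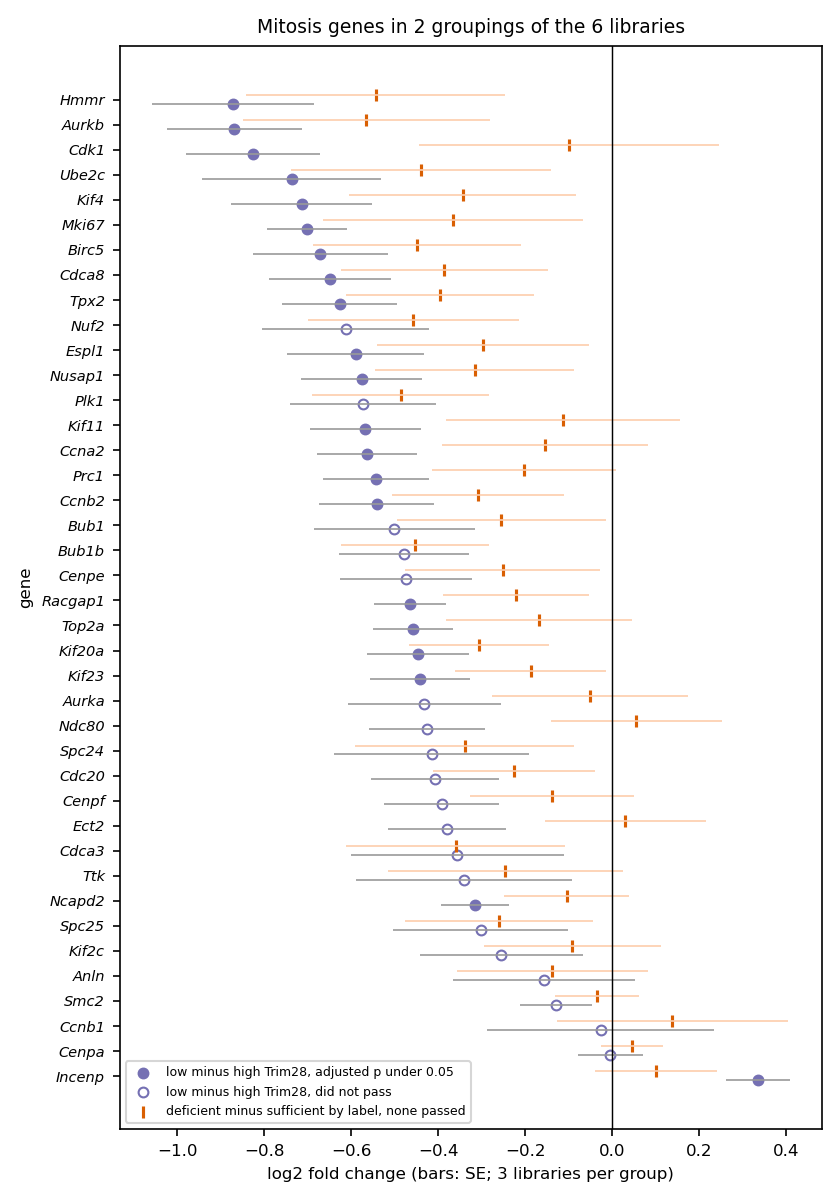
Points give the log2 fold change of each of the 40 genes, with SE bars, for low minus high Trim28 (purple circles, filled where the edgeR adjusted p was under 0.05) and for deficient minus sufficient by label in all 6 libraries (orange ticks). By Trim28 level the values run from -0.87 for Hmmr to 0.34 for Incenp, with Cenpa and Ccnb1 at about 0. By label most lie nearer to 0 and none passed.

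Single libraries decided many of the calls. The calls of 6 genes, Ccna2, Cdk1, Tpx2, Aurkb, Mki67 and Racgap1, held without any 1 of the 6 libraries. The number called by Trim28 level was 9 without deficient 1, 14 without deficient 2 and 28 without deficient 3, and 15 without sufficient 1, 8 without sufficient 2 and 11 without sufficient 3. Over all genes the share called was 4.51% without deficient 1, 4.57% without deficient 2 and 22.2% without deficient 3, and 5.26%, 4.91% and 4.83% without sufficient 1, 2 and 3, so the count of 28 went with more calls over all genes. Without deficient 3 no call was lost, and Plk1, Cenpe, Cenpf, Nuf2, Bub1, Bub1b and Cdc20 were called as well. Without sufficient 2, 13 calls were lost at log2 fold changes of -0.73 to -0.24, and without deficient 1, 12 were lost at -0.78 to -0.32. Ube2c and Kif20a, with Kif23, lost theirs without each library other than deficient 3. Incenp lost its call without deficient 2 and without sufficient 1, at log2 fold changes of 0.31 in both. With 4 libraries by label, DESeq2 called 8 of the 40 and 5.2% of all genes with any count. There edgeR called 14 without sufficient 2 and 16 without deficient 1, where 13.2% and 13.1% of all genes were called.

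Some markers of other cells were called by Trim28 level, namely Igkc, Cd22, Nkg7 and Klrb1c, where 8.23% of all genes were called. These lists are too short to set against that share. By label in all 6 libraries none of the markers was called. Of 7 B cell markers 4 were tested by Trim28 level and 2 fell, Igkc and Cd22, and the summed B cell list ran from 544 to 581 CPM with low Trim28 and from 606 to 697 CPM with high Trim28. Nearly all of it was Ighm, at 5303 to 6810 counts, while Ms4a1 was at or near 0. Igkc had 5, 4 and 10 counts with low Trim28 and 40, 14 and 41 with high Trim28. Of 4 CD8 T cell markers 2 were tested and Nkg7 fell, with summed levels of 22.8 to 25.6 CPM with low and 28.1 to 35.4 CPM with high Trim28. Of 4 natural killer cell markers 3 were tested and Klrb1c alone was called. The list summed to 17.1 to 18.2 CPM with low and 10.3 to 13.3 CPM with high Trim28. Klrb1c carried that separation and rose, at 10.8, 9.64 and 8.74 CPM with low and 2.18, 2.77 and 2.55 CPM with high Trim28. Eomes went the other way without overlap, at 1.09, 1.81 and 1.26 CPM with low and 2.55, 4.26 and 2.06 CPM with high Trim28. Ncr1 was at 0 in every library. Of 4 plasma cell markers 1 was tested and not called. The list summed to 91.8 to 96.0 CPM with low and 98.6 to 109 CPM with high Trim28, without overlap. Nearly all of that sum was Xbp1, at 919 to 1102 counts, while Jchain had 0 to 18. The 7 Treg markers were all tested and none was called, with sums of 4283 to 4423 CPM with low and 4485 to 4549 CPM with high Trim28, also without overlap. Of 6 myeloid and 7 erythroid markers 1 each was tested and not called, their sums overlapped, and none of 4 dendritic cell markers had counts enough to be tested. The part of these markers in the fall of the mitosis genes was not tested.

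Related genes were read from 7 further lists holding 194 genes. Of 91 other mitotic genes tested by Trim28 level, 16 fell and 1 rose, beside 3.61% lower and 4.61% higher among all genes, with a median log2 fold change of -0.27. The gene that rose was Cdc25b, a phosphatase that activates CDK1, at 233, 261 and 219 CPM with low Trim28 and 122, 133 and 138 CPM with high Trim28, a rise of 0.87 ± 0.07 (edgeR adjusted p = 1.6e-06). The 2 groups were far apart for this gene, whose direction was opposite to that of the kinase it activates. Cit, the citron kinase of cytokinesis, fell by 0.92 ± 0.13, the chromosome-binding kinesin gene Kif22 by 0.86 ± 0.15 and the spindle pole gene Aspm by 0.82 ± 0.15 (edgeR adjusted p = 0.00037, 0.00227 and 0.00298).

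Of 35 DNA replication genes, 10 fell and 0 rose, beside the same 3.61% and 4.61%, with a median of -0.26. Lig1, the ligase of the lagging strand, fell by 0.48 ± 0.08 (edgeR adjusted p = 0.00101), and Rrm1 and Rrm2, the subunits of ribonucleotide reductase, by 0.44 ± 0.07 and 0.52 ± 0.09. Mcm3, of the replicative helicase, fell by 0.39 ± 0.08. The list summed to 1356 ± 22.1 CPM with low Trim28 and 1611 ± 123 CPM with high Trim28 (SD, n = 3 each). Of 24 mitotic transcription regulators, 2 fell, the E2F genes E2f8 by 0.92 ± 0.18 and E2f1 by 0.56 ± 0.15 (edgeR adjusted p = 0.00609 and 0.0316), with a list median of -0.15. That count is near the 8.23% of all genes called and says nothing of the list. E2f1 lost its call with DESeq2, at -0.56, and without each single library other than deficient 3, at -0.63 to -0.46.

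The other 4 lists gave at most 1 call in either direction, too few to set against the 8.23% of all genes called. Among 6 G1 cyclin and CDK genes Cdk2 fell by 0.32 ± 0.06 and Cdk6 rose by 0.36 ± 0.08 (edgeR adjusted p = 0.00437 and 0.00844). Of 4 CDK inhibitor genes tested, Cdkn2c, which encodes p18, fell by 0.58 ± 0.14 (0.0177). Of 15 subunits of the anaphase-promoting complex 1, Anapc11, rose by 0.30 ± 0.07 (edgeR adjusted p = 0.0201), and the list's median was -0.00. Cdkn2c lost its call without deficient 1, sufficient 2 or sufficient 3, at -0.60 to -0.47. Anapc11 lost its call with DESeq2 and without deficient 1, deficient 2, sufficient 2 or sufficient 3, at 0.27 to 0.30. None of 12 cohesin genes passed, with a median of -0.02. The 2 with the smallest adjusted p were Pds5a and Stag1, at log2 fold changes of -0.11 ± 0.06 and 0.10 ± 0.05 (edgeR adjusted p = 0.311 and 0.312). By label in all 6 libraries 0 genes of these 7 lists were called.

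**Figure D4:**
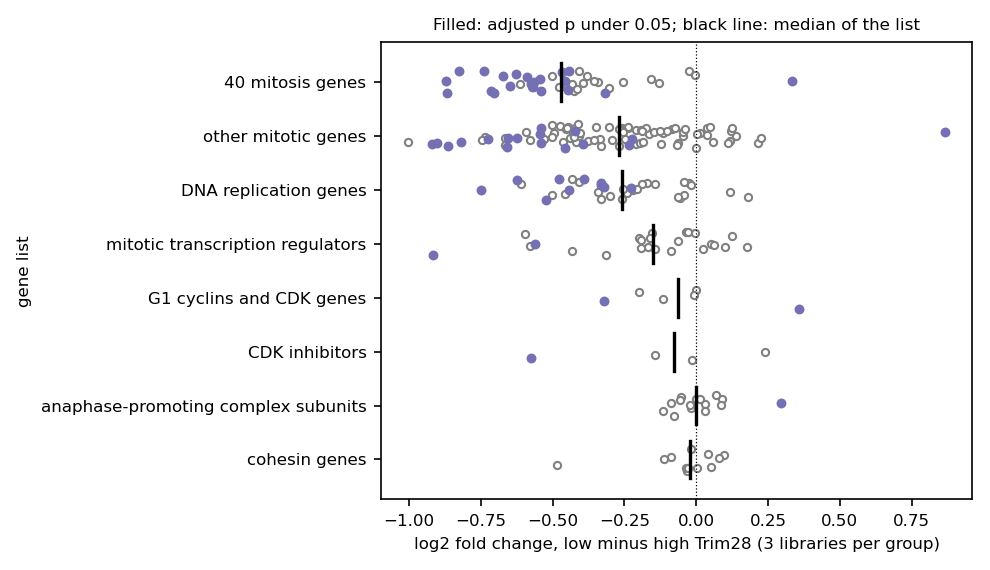
Points give the log2 fold change, low minus high Trim28, of each tested gene in the 40 mitosis genes and in 7 further lists, filled where the edgeR adjusted p was under 0.05, and a black line marks each list's median. The medians are -0.47 for the 40 genes, -0.27 for other mitotic genes and -0.26 for DNA replication genes, against -0.00 for anaphase-promoting complex subunits.

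Most of the promoters found held both elements shown in the sequences. RefSeq windows from 250 bases before to 50 after the start were matched for 34 of the 40 genes, and Ccna2, Tpx2, Aurkb, Incenp, Spc24 and Kif20a were not matched. A CHR, searched as TTTGAA on both strands, was in 28 of the 34 (82.4%), against 20.2% of 27025 genes. These 27025, called all genes below, are those with a full RefSeq window, whether or not expressed in these cells. The 40 genes were all expressed enough to be tested. A CCAAT box, searched as CCAAT on both strands, was likewise in 28 of the 34, against 41.1% of all genes, and 19 (55.9%) held at least 2, against 13.3%. Both elements stood in 25 (73.5%), against 8.97% of all genes. Top2a and Ube2c held 6 CCAAT matches each, and Hmmr 5. Birc5, Nusap1 and Nuf2 held neither element, and Birc5 and Nusap1 fell with low Trim28, while Cenpa and Smc2, which did not pass, held both. A match is a match of letters and not a bound site.

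**Figure D5:**
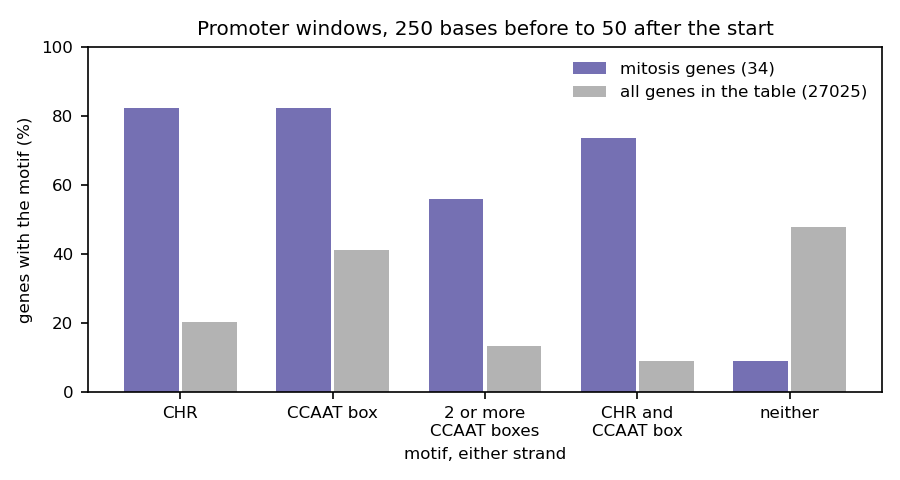
Bars give the percentage of genes whose promoter window, 250 bases before to 50 after the start, holds each motif on either strand. Purple is the mitosis genes (34), and grey all genes with a full RefSeq window (27025), whether or not expressed in these cells. The share with both a CHR and a CCAAT box is 73.5% for the mitosis genes and 8.97% for all genes.

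The authors' deposited table holds their own comparison. Its column headers do not state the direction of the log2 fold changes. Positive values were taken as higher in sufficient cells, the sign that Trim28 has there. Of the 40 genes in the authors' deposited table, 17 had an adjusted p under 0.05, 16 of them lower in deficient cells, where 6.87% of 12072 genes did, and 3.02% were lower. At any p, the authors' deposited table had deficient cells lower for 38 of the 40. The median log2 fold change of the 40 was 0.30, where that of all genes with a value was -0.00. The exceptions in the authors' deposited table were Incenp, at -0.28 (adjusted p = 0.0125), and Cenpa, at -0.02 (0.97). The authors' deposited table gave Mki67 as 0.60 (9.8e-12), Aurkb as 0.53 (0.00118), Racgap1 as 0.44 (7.22e-05) and Top2a as 0.43 (2.45e-05). It gave Trim28 as 3.11. The deposited counts gave Trim28 a log2 fold change, deficient over sufficient, of -0.90 by label in all 6 libraries. It was -3.54 in replicates 1 and 2 by label, and -3.51 for low over high Trim28. The sources used here do not give which libraries entered each side of the authors' deposited table. Its calls are therefore not known to be of the same comparison as those by label in all 6 libraries.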

How the data were processed

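RNA of YFP-sorted splenic Treg was counted in 6 libraries, made with a TruSeq v2 kit, which does not mark strand, per the labels' protocols. The submitters' processing notes name mm10, DESeq2, HTSeq 0.7.2 and TopHat2 2.1.1 without saying what each did, and no annotation release is stated. Counts of overlapping genes and of near-identical copies are therefore uncertain. One deposited table gives raw counts for 37991 genes. Names were found for 32919 of them, and the other 5072 rows took 0.603% of counts. A second deposited table holds the authors' mean signal, log2 fold change with its standard error, test score, p-value, adjusted p and a further q-value, per the file headers. The making of the q-value is not described there.

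Groups came from the sample titles, and the grouping by Trim28 level from Trim28 counts. The main test was edgeR 4.0.16 under R 4.3.3 (quasi-likelihood, robust, TMM, filterByExpr, Benjamini-Hochberg at 0.05 over all tested genes), and all 40 genes passed the filter in each fit. Alternatives were upper-quartile and median-ratio factors, no filter, DESeq2 1.42.0, limma-voom (limma 3.58.1), a replicate block and leaving out each library. The fits were tested on simulated data drawn with a common dispersion for all genes, unlike real counts. Of genes changed 1.5-fold, 54.0% were recovered by label in all 6 libraries. In replicates 1 and 2 it was 74.0%, and by Trim28 level 73.7%. False calls numbered 12, 6 and 4 in these fits. A gene that did not pass may therefore still have changed. Near-identical copies were sought among GENCODE M21 transcripts with blastn 2.17.0 (at least 95% identity over 200 bases), positions are from GENCODE M21, and promoters from RefSeq (GRCm38.p6). Tables used Python 3.11.15 with pandas 2.3.3 and numpy 2.4.6, and plots matplotlib 3.10.9.

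The 40 genes, the further lists and the grouping were chosen with earlier results of these data known. Values in each library are given for Mki67, Top2a, the 2 genes of highest mean CPM in each of 9 roles, and the lowest and highest log2 fold change by Trim28 level. From each list up to 4 called genes with the smallest adjusted p are named, or 2 where none was called. Aurkb, Igkc and the genes picked out for the number of single libraries they depend on were chosen after their values were seen. These rules also do not cover the values in each library of Cdc25b. Nor do they cover values of single marker genes other than Foxp3, such as Klrb1c, Eomes, Ighm and Xbp1. Cdkn2d had no row and was not analysed here. One marker gene of the lists is not reported here.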

Additional observations from a re-analysis of the deposited data

How the results depend on the processing

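By label in all 6 libraries, 2 genes were called, and 6 with DESeq2, 1 with limma-voom and 0 with the replicate block. Leaving out 1 library gave 1 to 807 genes, the 807 without sufficient 3, and 0 to 4 of the 40 mitosis genes. In replicates 1 and 2 by label, 2114 genes and 24 of the 40 were called. DESeq2 called 930 genes, 5.2% of those with any count, and 8 of the 40, all 8 among the 24. Upper-quartile factors turned the split of all genes there to 1046 higher and 1248 lower, and by Trim28 level to 489 higher and 562 lower. Without 1 library this count ran from 1632 to 1717 genes and from 14 to 27 of the 40, the 14 without sufficient 2. By Trim28 level, 1000 genes and 21 of the 40 were called, and 1676 genes with no filter. Without 1 library the counts ran from 556 to 2737 genes and from 8 to 28 of the 40. DESeq2 called 16 of the 21 and 4.26% of all genes with any count. Limma-voom called 20 of the 21 and 7.54% of all tested genes. The replicate block called 0 of the 40 by label, 27 in replicates 1 and 2 and 23 by Trim28 level. Of all tested genes it called 0%, 19.4% and 9.19%. Deviations of same-numbered libraries correlated at -0.04, 0.02 and 0.02 by Trim28 level, so no pairing by number showed there. By label they correlated at -0.61 to -0.29. The label groups mix low and high Trim28, so those values cannot show whether libraries were paired. Median log2 fold changes of the 40 without 1 library ran from -0.40 to -0.07 by label, -0.64 to -0.43 in replicates 1 and 2 and -0.57 to -0.40 by Trim28 level. By label in all 6 libraries, single-gene values were checked only for those of the 40 with values given in each library and for Ccnb1. Whether the rest of the 40 change sign by label was not checked. Of 1324 single-gene values, 15 changed sign and 0 of these had been called. Without 1 library, these ran by label from -0.46 to 0.0429 for Bub1, -0.0139 to 0.25 for Ccnb1, -0.46 to 0.0344 for Cenpe, -0.34 to 0.0882 for Kif11 and -0.34 to 0.0379 for Top2a. In replicates 1 and 2 they ran from -0.10 to 0.31 for Ccnb1, -0.0583 to 0.12 for Cenpa and -0.27 to 0.0372 for Smc2, and by Trim28 level from -0.19 to 0.17 for Ccnb1 and -0.0411 to 0.0433 for Cenpa. The cause was not tested. Ccnb1 had the lowest mean count of the 40, at 17 to 31 counts per library and an SE of 0.26 by Trim28 level. Whether depth or its near-identical pseudogenes limited that count was not tested.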

Other observations

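The mean levels in the authors' deposited table were not a fixed multiple of the mean deposited counts. Over the 40 genes the ratio of the authors' mean level to the mean count of the 6 libraries ran from 0.848 for Cenpa to 3.19 for Ccnb1. For Ccnb1 the authors' deposited table gave 73.3, where the deposited counts averaged 23. For Hmmr, the gene with the next highest ratio at 2.16, the authors' deposited table gave 134, where the counts averaged 61.8. These genes were picked out after their values were seen. In the authors' deposited table Hmmr had a log2 fold change of 0.16 (adjusted p = 0.592), whereas the deposited counts gave it the lowest log2 fold change of the 40 by Trim28 level.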
